A study of Oryctolagus cuniculus with 3 samples.

Results

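LCK, CD79B, CD3E and ZAP70 encode proteins through which the antigen receptors of T and B lymphocytes signal, and their levels were described here in the abdominal aorta of rabbits with atherosclerosis. The set is these 4 genes, taken by name, among 3706 gene symbols that the study lists by cluster as changed. The array carried 43603 gene probes, whose deposited table gives no gene names. Each gene was therefore traced to the 1 probe whose log2 ratios of model over control and of recovery over control both lay within 0.006 of the ratios listed for that gene. All 4 genes matched exactly 1 probe, namely A_04_P061612 for LCK, A_04_P100067 for CD79B, A_04_P002366 for CD3E and A_04_P037027 for ZAP70. The number of probes expected to match by accident, judged from the density of probes around each gene, was 0.0072 for LCK and CD79B, 0 for CD3E and 0.011 for ZAP70. The ratios between arrays, recovery over model included, thus follow the listed ones by construction, and the levels are what the deposited values add.

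All animals were adult male New Zealand white rabbits, 3 months old when purchased. The 3 arrays are labelled with different days, so age at sampling may differ between them. The control aorta (day 0) came from an uninjured rabbit on normal chow, and the model aorta (day 30) from a rabbit given chow with added cholesterol and peanut oil for 4 weeks, with balloon injury of the abdominal aorta early in that period. The recovery aorta (day 60) had the same injury and diet and then 4 further weeks without added cholesterol or fat. The methods describe these last weeks as caloric restriction and the labels as a normal diet. The label of the control array also carries PBS, and the methods name no such treatment of the rabbits. Each group is represented by 1 aorta, which the study picked from 4 rabbits with the help of histology and intravascular ultrasound, so the 3 arrays carry no spread between animals. Each difference below is therefore one between single aortas, without an SD or a test.

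T cells recognise antigen through a receptor whose own chains have almost no signalling part inside the cell. The associated CD3 chains provide it, through tyrosine motifs that the kinase LCK phosphorylates and to which the kinase ZAP70 then binds. In B cells, CD79A and CD79B play the part of the CD3 chains for membrane immunoglobulin, and their tyrosine motifs recruit the kinase SYK. In arteries, T cells are found in plaques and in the adventitia, and B cells mainly in the adventitia and the surrounding fat.

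All 4 genes lay above the detection floor in the control aorta and below it in the model and recovery aortas. The floor was a log2 normalized signal of 4.37, the 40th percentile of all gene probe values, and a value below it was read only as a bound. In every array 26161 probes (60.0%) exceeded it. The pattern of the 4 genes was held by 5.15% of the probes that were above the floor in control. RNA came from a part of each aorta, without separation of its cells. Fewer lymphocytes, less RNA per lymphocyte and a different share of other tissue thus cannot be told apart.

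CD3E encodes the epsilon chain of CD3, which every T cell receptor complex needs. Its log2 signal was 5.44 in control, 1.94 in model and 0.36 in recovery. The control array alone gave a value above the floor, by 1.07 on the log2 scale, and the fold is thus no more than a bound. In the model aorta CD3E was at least 2.10-fold below control, and the same bound holds for recovery over control. In recovery its value lay 0.15 below that of the negative control row on the array, which read 0.47 in control, 0.44 in model and 0.51 in recovery.

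LCK encodes the Src-family kinase that starts signalling from the T cell receptor. Its log2 signal was 7.03 in control, 3.13 in model and 1.29 in recovery. The control value exceeded the floor by 2.65 and the others were 1.24 and 3.09 below it. In model LCK was at least 6.29-fold below control, and the bound in recovery was the same. In the control aorta its level exceeded that of 64.1% of gene probes, against 29.5% in model and 16.9% in recovery.

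ZAP70 encodes the kinase that LCK activates on the CD3 chains and that passes the signal on to adaptor proteins. Its log2 signal was 5.65 in control, 2.67 in model and 0.65 in recovery. As for CD3E, the control value was not far above the floor, by 1.27. The bound on ZAP70, for model and for recovery against control, was a level at least 2.42-fold lower. Its recovery value exceeded the negative control row by 0.14.

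CD79B encodes a signalling chain of the B cell receptor. Its log2 signal was 8.22 in control, 3.35 in model and 4.06 in recovery. CD79B had the widest distance between control and floor among these genes, 3.85, so that model and recovery lay at least 14.4-fold below control. Its recovery value was 0.31 below the floor, so no level can be assigned to it there, and it lay 3.55 above the negative control row.

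**Figure D1:**
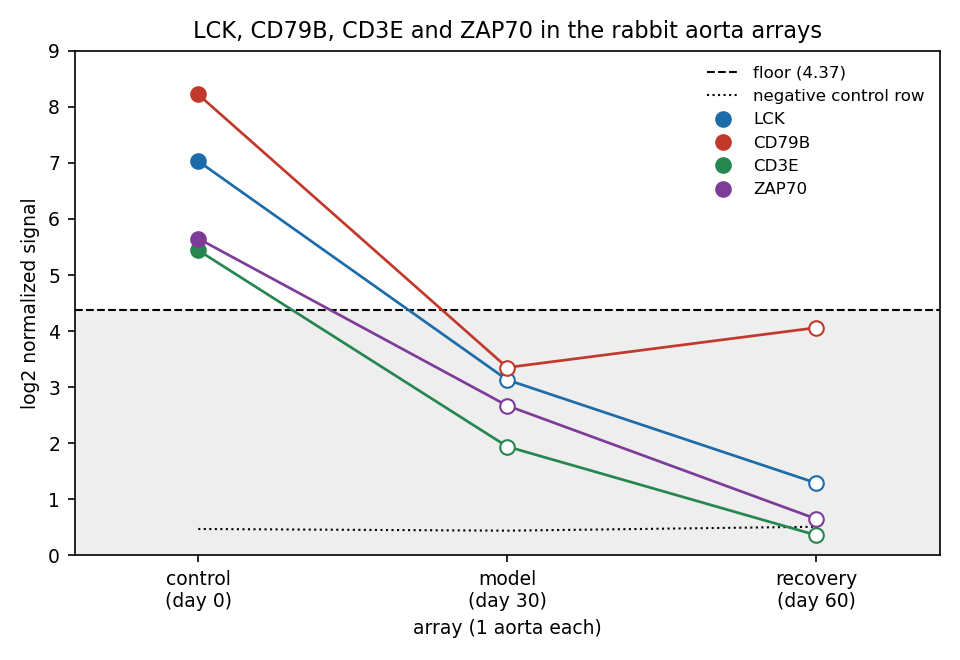
Log2 normalized signal (vertical axis) of LCK, CD79B, CD3E and ZAP70 in the control, model and recovery arrays, 1 aorta each. Filled points lie above the floor of 4.37 (dashed) and open points in the grey zone below it, and the dotted line is the negative control row. All 4 genes are filled in control only, and in recovery CD79B stands at 4.06 while the other 3 lie between 0.36 and 1.29.

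To count changes, any signal below the floor was raised to it. All 4 genes were then at least 2-fold lower in model than in control, against 13.1% of the 28950 probes detected on 1 or more arrays. For recovery over control the count was again 4 of 4, against 16.0% of probes. These counts are a description, since the genes stand on a list of changed genes made from the same arrays and were taken up with these values known. For recovery over model no gene of the 4 was counted as lower, against 8.16% of probes, because both values of each gene were below the floor. All comparisons share arrays, and the first 2 share the control aorta.

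The bounds of CD3E and ZAP70 depend on where the floor is set. Among the 810 probes with control levels from that of CD3E to that of ZAP70, 11.6% were below the floor in both other arrays. Among the 4604 probes from the control level of LCK to that of CD79B it was 2.26%, and over the whole range from CD3E to CD79B 4.78% of 10931 probes. Under a floor at the 60th percentile (6.58), CD3E and ZAP70 were below it in every array, LCK was at least 0.45 lower on the log2 scale and CD79B at least 1.64 lower. A floor at the 20th percentile (1.82) left all 4 model values measured, and model over control was -3.90 for LCK, -4.88 for CD79B, -3.50 for CD3E and -2.98 for ZAP70.

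Taken as deposited, without any floor, these ratios were among the low ones of the arrays. For model over control, 1.56% of the 28950 probes had a lower ratio than LCK, 0.843% than CD79B, 2.13% than CD3E and 3.18% than ZAP70. For recovery over control the ratio was -5.74 for LCK, -5.08 for CD3E, -4.99 for ZAP70 and -4.16 for CD79B. The shares of probes with a lower ratio were 0.943% for LCK, 1.61% for CD3E, 1.65% for ZAP70 and 2.71% for CD79B. A ratio of this kind that rests on values below the floor describes the table and is no measured fold. The probes were also found by these ratios, for genes listed as changed, so shares this small were largely set by that choice.

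The 3 T cell genes and CD79B differed in the step from model to recovery. As deposited, recovery over model was -1.85 for LCK, -1.58 for CD3E and -2.02 for ZAP70, whereas it was 0.72 for CD79B. Of all probes counted, 4.03% had a lower ratio than LCK, 5.29% than CD3E and 3.33% than ZAP70, against 85.5% for CD79B. Every one of these values was below the floor of 4.37, so the difference is not established as one of expression. Under the lower floor of 1.82, the 3 recovery values of the T cell genes were still below it, and their ratios became bounds of -1.31 for LCK, -0.12 for CD3E and -0.85 for ZAP70. CD79B was then measured in all 3 arrays and kept its ratio of 0.72.

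**Figure D2:**
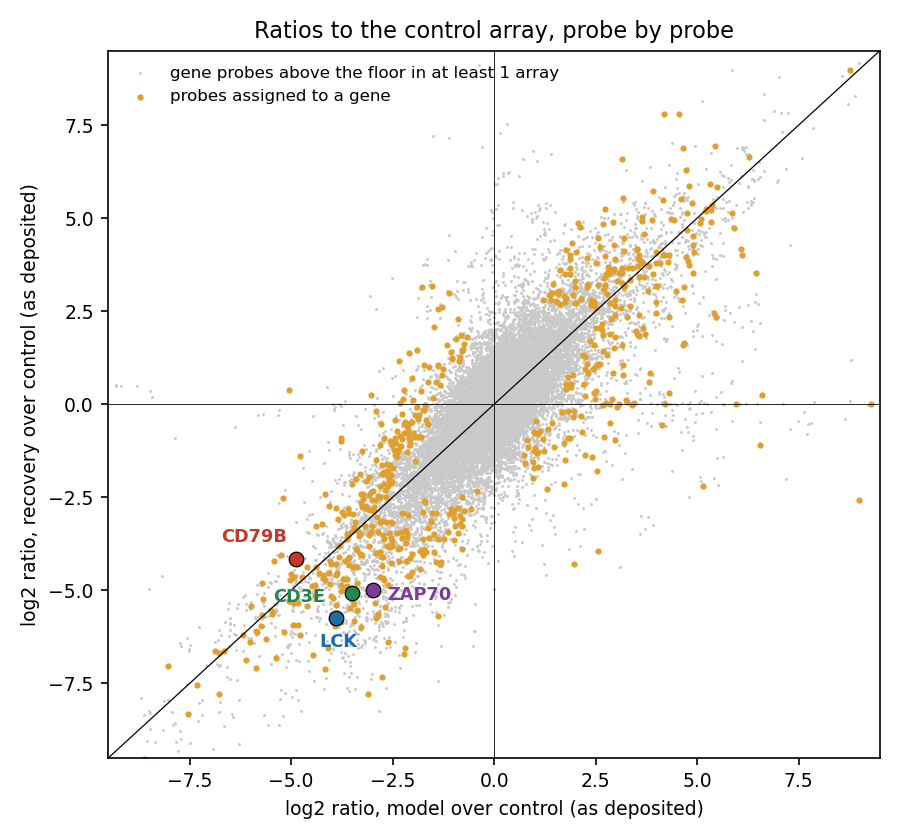
Log2 ratio of model over control (horizontal axis) against recovery over control (vertical axis), as deposited, for the 28950 gene probes detected on 1 or more arrays (grey) and the 611 probes assigned to a gene (orange). LCK, CD3E and ZAP70 lie below the diagonal of equal ratios, at -5.74, -5.08 and -4.99 on the vertical axis, and CD79B lies above it, at -4.16. The 2 axes share the control array.

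Genes with the most similar pattern were taken from the 611 listed genes that could be assigned a probe. Likeness was the Euclidean distance between the 3 log2 values of 2 genes after each gene's mean was subtracted, over 3 arrays and as deposited. This distance rests on the same ratios that placed each probe and, for these 4 genes, on model and recovery values below the floor, so it describes the table and not measured expression. LCK was 0.47 from CD3E and 0.69 from ZAP70, and CD3E and ZAP70 were 0.40 apart. CD79B was 1.63 to 1.98 from the other 3 genes.

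The 5 genes nearest to LCK were TREML1, a receptor of platelets, at a distance of 0.17, then AP1G2, PCDH10, LOC100343920 and PODXL, the last at 0.34. TREML1 read 8.12 in the control array, 4.35 in model and 2.26 in recovery. Nearest to CD3E were CYP2C, ENOX1, PAMR1, ASPA and PODXL, at 0.15 to 0.25. Nearest to ZAP70 was LTB, the lymphotoxin beta gene of lymphocytes, at 0.23, followed by PAFAH2, SLC15A2, ARHGEF3 and HSD11B2. For CD79B the zinc transporter gene SLC39A8 was nearest, at 0.065, and FBP1, FAM213A and APOA1 followed at 0.28 to 0.35. No gene of the receptor signalling lists was among the 5 nearest of any of the 4, but only 6 genes of those lists had an assigned probe. Ranked by distance among 610 assigned genes, LCK, CD3E and ZAP70 stood at 9 to 30 for one another. Ranks in pairs that include CD79B were 122 to 187. With 3 arrays many genes share such a pattern, and distances this small rank genes only within these aortas.

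Other genes of the pathways were taken from lists of 40 T cell and 27 B cell receptor signalling genes, 61 genes in all, as 6 stand on both. Of these, 25 are on the study's list of changed genes and only 6 could be assigned a probe under the stricter rule, which also asked for fewer than 0.05 accidental matches. They were the 4 genes above, SKAP1 and SH2D1A. SKAP1, an adaptor that links the T cell receptor to integrin adhesion, read 5.32 in the control array, 1.54 in model and 0.31 in recovery. SH2D1A, the adaptor SAP of lymphocyte SLAM receptors, had 5.03, 2.50 and 1.88 in the same order. Both were above the floor only in control, where they were too close to it for a 2-fold bound. The bound in model and in recovery was 1.92-fold lower for SKAP1 and 1.57-fold lower for SH2D1A. Over the 6 genes the median log2 ratio after flooring was -1.17 in model and in recovery, against 0.02 and 0.04 over all 28950 probes. These 6 stand on the list of changed genes and were above the floor only in control, so a negative median was fixed in advance.

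A further 7 signalling genes had a single matching probe in denser regions, with 0.065 to 0.38 accidental matches expected, and their identity is less certain. CD5, a surface regulator of T cell receptor signalling, was above the floor in all 3 arrays, with 7.62 in control, 5.78 in model and 4.61 in recovery. It was 3.57-fold lower in model and 8.05-fold lower in recovery than in control. FCRLA, an Fc receptor-like protein of B cells, had 7.35, 4.20 and 3.93, and was at least 7.85-fold lower in both aortas. CD2, an adhesion receptor of T cells, was at least 2.35-fold lower in both, at 5.61, 3.42 and 3.31.

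UBASH3A, which restrains T cell receptor signalling, was at 5.75 in control, 4.37 in model and 5.05 in recovery. It was just below the floor in model, at least 2.59-fold lower than in control, and 1.62-fold lower in recovery than in control. The probe matched to IFNG, the interferon gamma gene of activated T cells, is the least certain of these 7, with 0.38 accidental matches expected. It was at 9.19, 8.25 and 7.70, or 1.92-fold lower in model and 2.81-fold lower in recovery. The B cell kinase gene BLK exceeded the floor only by 0.15, in control, and CD40LG was below it in every array. Of the 13 genes with a single match, 8 were at least 2-fold lower in model and 8 in recovery, and none was at least 2-fold higher in either. As all 13 stand on a list of changed genes, these shares are not to be read against the 13.1% and 16.0% of all probes.

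Another 12 listed signalling genes on the study's list could not be placed, because 8 matched no probe and 4 matched several. The first 8 include CD3G and CD247, which encode the gamma and zeta chains of the receptor complex that also holds CD3E. In the RefSeq gene table of the rabbit assembly mOryCun1.1, CD3D and CD3G directly follow CD3E, and all 4 genes described here occur once. MS4A1, which encodes the B cell antigen CD20, matched 2 probes of the same ratios and different levels. One read 13.57 in the control array, 11.31 in model and 12.99 in recovery, and the other was below the floor throughout. Whichever is the MS4A1 probe, its value was 2.26 lower in model and 0.58 lower in recovery than in control as deposited, whereas CD79B was 4.88 and 4.16 lower.

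**Figure D3:**
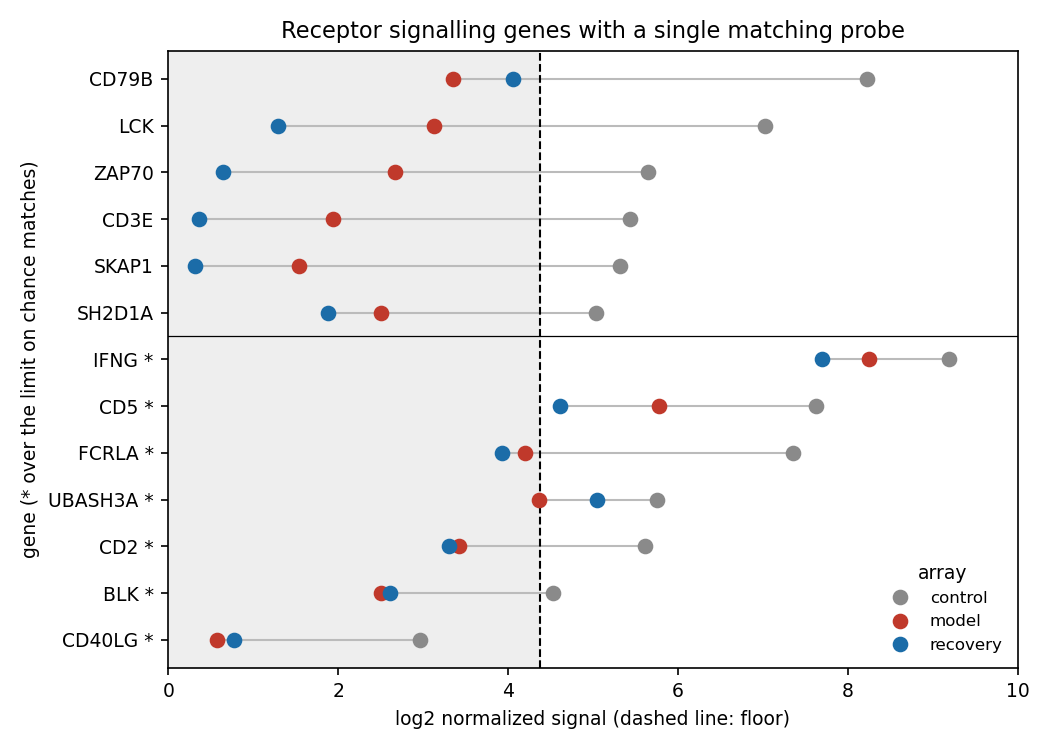
Log2 normalized signal (horizontal axis) in the control (grey), model (red) and recovery (blue) arrays for the 13 receptor signalling genes with a single matching probe. The 6 genes above the line had fewer than 0.05 accidental matches expected, and the 7 starred genes had more. Left of the dashed floor a value is a bound. Among the upper 6 genes only control points lie right of the floor, while IFNG and CD5 lie right of it in all 3 arrays.

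Lists of lymphocyte markers, as distinct from signalling genes, yielded few probes. Of 27 T and NK cell markers 3 were assigned, CD3E, SH2D1A and CCL5, and of 21 B and plasma cell markers only CD79B. CCL5, a chemokine made by T and NK cells, read 6.80 in the control array, 2.96 in model and 3.71 in recovery. It was thus above the floor in control alone, and at least 5.36-fold lower in both other aortas. The 3 probes summed on the linear scale to 187 in control, 17.3 in model and 18.1 in recovery. One of 12 genes of lymphatic vessels and lymph node stroma was assigned, CCL19, a chemokine that draws T cells into lymphoid tissue. It read 6.83 in the control array, 4.50 in model and 7.99 in recovery, above the floor each time. CCL19 was 5.03-fold lower in model and 2.24-fold higher in recovery than in control, whereas LCK, CD79B, CD3E and ZAP70 were below the floor in recovery.

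Markers of other cells that an aorta with its surrounding tissue can hold also differed between these arrays. A marker could be assigned a probe only if it stands on the study's list of changed genes, so the counts below are largely set by that choice and are not to be read against the 13.1% and 16.0% of all probes. Pan-leukocyte genes are expressed in most white blood cells, and 4 of 28 listed were assigned a probe. Of these, 3 were at least 2-fold lower in model and in recovery than in control. The median log2 ratio of the 4 was -1.95 for model over control. ARHGDIB was above the floor in all arrays, at 11.09 in control, 8.18 in model and 7.10 in recovery. LTB had 8.17, 5.46 and 3.45 and was 6.51-fold lower in model. IKZF3, a transcription factor of lymphocytes, had 5.57, 1.59 and 0.37 and was at least 2.29-fold lower, and KLHL6 was below the floor throughout. On the linear scale the 4 probes summed to 2530 in control, 344 in model and 151 in recovery, and most of each sum was ARHGDIB. Without the limit on accidental matches 11 pan-leukocyte genes were placed, of which 6 were lower in model and 9 in recovery, and none was higher.

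The lists for blood and fat lay on the same side. All 3 assigned of 13 neutrophil markers (S100A12, PGLYRP1 and FFAR2) and all 4 assigned of 14 erythroid and platelet markers (HEMGN, ALAS2, TREML1 and EPB42) were at least 2-fold lower in model and in recovery. Their median log2 ratios in model were -3.38 and -3.92. The erythroid and platelet probes summed to 8271 in control, 498 in model and 93.6 in recovery, and the neutrophil probes to 7377, 180 and 274. A single probe made up most of each control sum, ALAS2 at 12.84 and a neutrophil marker at 12.73. All 5 assigned of 15 adipocyte markers were lower too, with a median of -6.47, and summed to 178528 in control, 10273 in model and 13444 in recovery. FABP4, at 17.04, made up most of that control sum. All 3 assigned of 15 endothelial markers were lower, with a median of -2.53, and summed to 1158, 134 and 174. Without the limit on accidental matches, 4 of 4 neutrophil, 6 of 6 erythroid and platelet and 6 of 6 endothelial markers were lower in both aortas, and of 8 adipocyte markers 8 were lower in model and 7 in recovery. The part of blood, fat or endothelium left in each specimen in the values of the 4 lymphocyte genes was not tested.

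Smooth muscle markers lay on the other side, and macrophage markers were mixed. All 5 assigned of 12 contractile smooth muscle markers were at least 2-fold higher in model and in recovery than in control. Their median log2 ratio was 4.43 for model over control. They summed to 10115 in control, 142236 in model and 212537 in recovery. MYH11, the smooth muscle myosin, was at 10.71 in control, 15.14 in model and 15.66 in recovery. Of the 5 markers 4 were above the floor in control and all 5 in the other arrays. Most of these markers of the labelled tissue were thus detected throughout, at lower levels in control. Their presence does not show that the specimens held like shares of tissue. Of 21 macrophage markers 3 were assigned, all at least 2-fold higher in model, and 1 of them (SPP1) in recovery. They summed to 75.5 in control, 1753 in model and 7310 in recovery. In recovery only SPP1 was above the floor, at 12.83, and it made up nearly all of that sum. The other 2 were at least 2-fold lower in recovery than in model. Without the limit on accidental matches 8 macrophage markers were placed, of which 3 were lower and 3 higher in model, with a median log2 ratio of -0.67. In recovery 5 of these were lower and 1 was higher, with a median of -1.24. The 8 probes summed to 4184 in control, 3790 in model and 8537 in recovery, and most of the recovery sum was again SPP1. As quantile normalization gives each array the same distribution, a level is relative to the other probes of its array, and the part of the higher smooth muscle signal in the lower lymphocyte values was not tested.

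**Figure D4:**
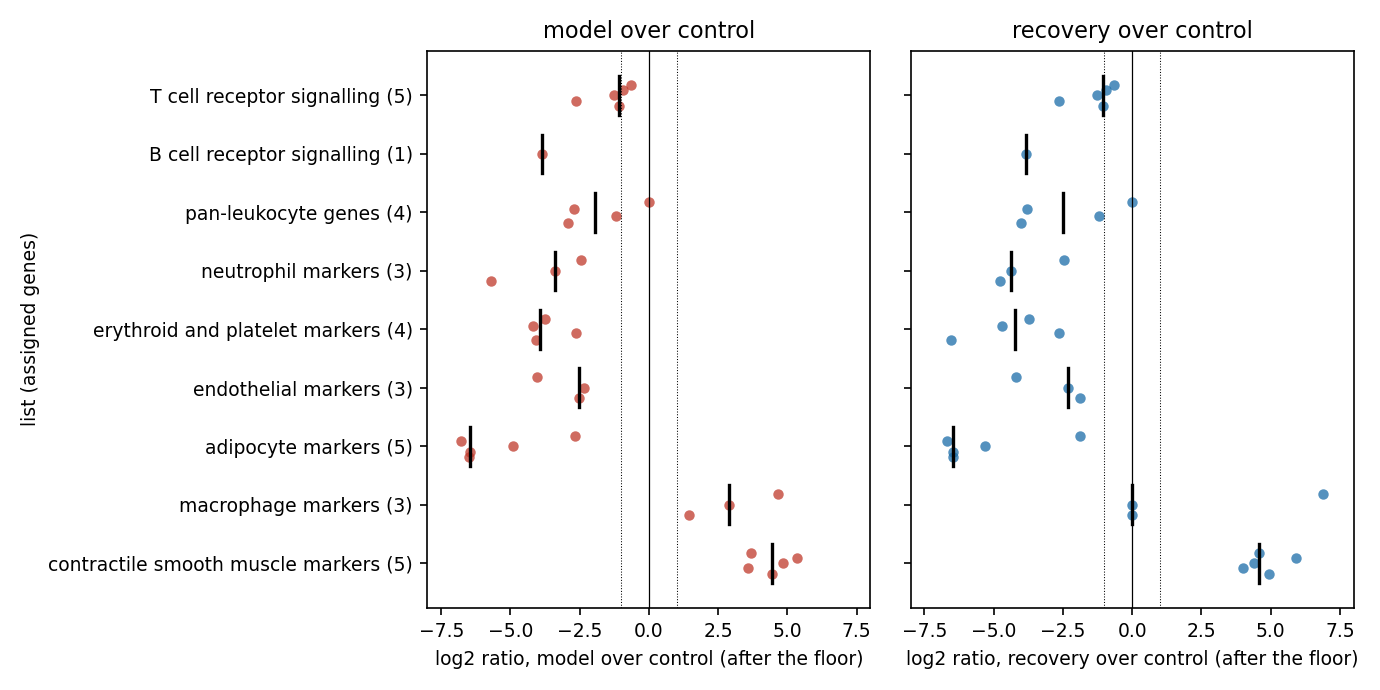
Log2 ratio to control (horizontal axis) in model (left) and recovery (right) of the assigned genes of each list, with signals below the floor raised to it. Points are genes, bars are medians, dotted lines mark 2-fold, and a gene below the floor in both arrays is drawn at 0. The T and B cell receptor lists lie left of 0 with the leukocyte, neutrophil, erythroid, endothelial and adipocyte lists, and contractile smooth muscle lies right of it, at medians of 4.43 and 4.57. The T cell list holds LCK, CD3E and ZAP70 with SKAP1 and SH2D1A, and the B cell list CD79B alone. Both lists thus largely restate the genes described above.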

How the data were processed

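RNA from 3 aortas was hybridized to single-colour (Cy3) Agilent rabbit arrays. Scanned images were read by the authors in Agilent's Feature Extraction software (10.7, per the submitters' processing notes), followed by quantile normalization in GeneSpring. The deposited values are log2 signals of 43603 gene probes and 58 control rows. How background was treated and replicate spots combined is not given in the sources used here. The present and absent calls of the study were not used here. The table holds 1 negative control row, so the 40th percentile of gene probe values served as the floor. A probe counted as lower or higher at 2-fold or more after flooring.

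The gene lists, the members and the rules were chosen with earlier results of these data known. The named genes are the members, all signalling genes with a single matching probe, up to 4 genes of other lists and the 5 nearest genes of each member, of which 1 is not reported here. The number of arrays limits the precision, and no test was run. The matching and the counting were tested on simulated data. The planted drops lay in probes far above the floor, so bounds like those of the members were not tested. Protein and promoter motifs named in the design were not searched, as no sequences were used here. Python 3.11.15, numpy 2.4.6 and pandas 2.3.3 were used.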

Additional observations from a re-analysis of the deposited data

How the results depend on the processing

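The count of 4 genes at least 2-fold lower, in model and in recovery over control, was 4 with the floor at the 20th percentile, with no floor, at a 1.5-fold threshold and under both other scalings. It was 1 (CD79B) with the floor at the 60th percentile and 2 (LCK and CD79B) at a 4-fold threshold, in both comparisons. With the arrays shifted to equal spiked-in controls, 8.36% of probes were at least 2-fold lower in model and 16.7% in recovery than in control. With equal medians of the probes above the floor in all arrays the shares were 13.4% and 16.5%. No such share is given here for the other floors and thresholds, so their counts cannot be set against one. For recovery over model the count of 0 became 1 (LCK) with the floor at the 20th percentile and 3 (LCK, CD3E and ZAP70) with no floor. Of 20 log2 ratios of single genes to control recomputed with another floor or none, 18 moved by over 1.5 times. Under the scalings all 16 equalled the bound of control over floor, which shifts of this size in the other arrays cannot change, so they show nothing about stability. When the arrays were shifted to equal medians of the 8 spiked-in controls, which lay 0.46 lower in model than in control, the share of lower among all changed probes was 25.9% in place of 52.3% for model over control and 87.3% in place of 53.7% for recovery over model. The median log2 ratio of all probes for model over control was then 0.46, against 0.02. Each of the 4 genes kept its probe with a tolerance of 0.01. Genes with an assigned probe numbered 5 of the T cell list, against 10 with no limit on accidental matches and 2 with a limit of 0.01, and 1 of the B cell list, against 3 with no limit. No paired analysis was possible because each group has 1 array. For the same reason no replicate could be left out. Depth is not recorded for arrays, and signal over background limits CD3E and ZAP70 most.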

Other observations

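Of 18 listed genes of dividing cells, 3 were assigned a probe, and 1 of these in model and 2 in recovery lay 2-fold or more below control, with median log2 ratios of -0.73 and -2.00. CCNB2, a cyclin of mitosis, was at a log2 level of 6.38 in the control array, 4.91 in model and 2.90 in recovery, and NCAPG, a condensin subunit, at 6.52, 5.79 and 3.64. Against control, CCNB2 was 2.76-fold lower in model and at least 4.00-fold lower in recovery, and NCAPG 1.65-fold and at least 4.42-fold lower. Without the limit on accidental matches 9 were placed, of which 4 in model and 6 in recovery were that much lower. KIF11 lay 0.12 above the floor in control and below it in the other arrays. Only genes on the study's list of changed genes were assigned a probe, and 17 of the 18 stand on it. The counts above are thus largely set by that choice. They are not to be read against the 13.1% of all probes that were that much lower in model and the 16.0% in recovery. A difference in the number of dividing cells was not tested.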
